A study of Homo sapiens with 3 samples.

Results

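The 7 genes of the FOS family (FOS, FOSB, FOSL1, FOSL2) and the JUN family (JUN, JUNB, JUND) were examined for regions of ZMYND11 and ETS2 binding in the prostate cancer cell line DU145. Chromatin immunoprecipitation sequencing (ChIP-seq), which maps the places on the genome where a protein is found, had been carried out on 3 libraries. ZMYND11 (also named BS69) was precipitated from parental DU145 cells and, separately, from DU145 cells carrying a knockout of ETS1, and ETS2 was precipitated from the ETS1-knockout cells. DU145 is an established line from a brain metastasis of a prostate adenocarcinoma, and all cells were grown in DMEM with serum, with puromycin where cells had been selected. How the knockout was made, and whether the knockout cells are a single clone, is not given in the sources used here. Each group is 1 library, with no replicate and no control library analysed here, so no value below has a replicate error and no difference between lists was tested. The deposited data are lists of regions without a score or a read count, and the depth of the libraries is unknown.

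A region was assigned to a gene when it overlapped the hg19 locus of that gene extended by 10 kb on either side. By this rule 17 of the 17232 regions in the 3 lists belonged to the 7 genes. The knockout ZMYND11 list supplied 16 of its 15676 regions, the knockout ETS2 list 1 of 1020, and the parental ZMYND11 list 0 of 536. The loci lie on chromosome 14 (FOS, 75745481 to 75748937), chromosome 19 (FOSB, 45971253 to 45978437; JUNB, 12902310 to 12904124; JUND, 18390504 to 18392466), chromosome 11 (FOSL1, 65659692 to 65667997), chromosome 2 (FOSL2, 28615779 to 28637516) and chromosome 1 (JUN, 59246463 to 59249785). FOSL1, JUN and JUND are transcribed from the minus strand and the others from the plus strand. Distances below run from the gene start to the midpoint of a region, in the direction of transcription, and are negative upstream.

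FOS and JUN proteins are the subunits of AP-1, a transcription factor that binds DNA as a dimer through a basic region and a leucine zipper. JUN proteins can pair with each other or with FOS proteins, whereas FOS proteins need a JUN partner, and JUNB and JUND differ from JUN in how strongly they activate transcription. Several of these genes, FOS above all, are immediate-early genes that are switched on within minutes of growth factor signalling through Ras and the ERK kinases, while FOSL1 and FOSL2 (FRA-1 and FRA-2) respond later. AP-1 and ETS factors often bind next to each other at Ras-responsive genes. ETS1 and ETS2 are ETS factors that ERK phosphorylates, and ZMYND11 is a co-repressor that reads a histone mark found over transcribed gene bodies.

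The upstream sequences of 5 genes are shown for the letters they hold: the 4 genes with a knockout ZMYND11 midpoint within 1 kb of the start, and FOS, which had no region in its window. Each is the 250 bases before the gene start in RefSeq, 5′ to 3′ on the strand of the gene, on GRCh38.p14, a different build from that of the regions. The coordinates of the sequences therefore cannot be set against those of the regions. Capitals mark the ETS core GGAA (or TTCC, its reverse complement) and the octamer TGANNTCA, a spaced form of the AP-1 site that reads the same on both strands. The sequences are those of JUN (chr1:58784048-58784297, minus strand), JUNB (chr19:12791236-12791485, plus strand), JUND (chr19:18281623-18281872, minus strand), FOSL2 (chr2:28392608-28392857, plus strand) and FOS (chr14:75278578-75278827, plus strand).
JUN: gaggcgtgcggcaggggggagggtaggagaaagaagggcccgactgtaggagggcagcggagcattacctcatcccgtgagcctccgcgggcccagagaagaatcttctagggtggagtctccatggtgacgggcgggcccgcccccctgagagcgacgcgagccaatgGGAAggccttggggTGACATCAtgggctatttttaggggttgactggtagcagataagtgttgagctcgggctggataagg
JUNB: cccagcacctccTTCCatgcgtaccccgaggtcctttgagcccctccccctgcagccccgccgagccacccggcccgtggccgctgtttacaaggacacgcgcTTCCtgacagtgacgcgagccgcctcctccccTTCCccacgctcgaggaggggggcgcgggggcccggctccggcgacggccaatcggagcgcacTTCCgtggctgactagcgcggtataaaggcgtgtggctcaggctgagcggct
JUND: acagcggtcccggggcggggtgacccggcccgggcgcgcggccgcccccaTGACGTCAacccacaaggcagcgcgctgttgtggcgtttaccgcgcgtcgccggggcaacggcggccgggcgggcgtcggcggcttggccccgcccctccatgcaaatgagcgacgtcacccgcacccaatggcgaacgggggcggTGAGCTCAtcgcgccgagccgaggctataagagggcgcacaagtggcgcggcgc
FOSL2: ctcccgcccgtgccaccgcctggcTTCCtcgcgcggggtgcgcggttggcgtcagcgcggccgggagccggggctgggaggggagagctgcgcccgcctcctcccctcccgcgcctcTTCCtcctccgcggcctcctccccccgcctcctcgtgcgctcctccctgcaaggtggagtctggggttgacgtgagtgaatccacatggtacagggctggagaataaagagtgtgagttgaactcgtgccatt
FOS: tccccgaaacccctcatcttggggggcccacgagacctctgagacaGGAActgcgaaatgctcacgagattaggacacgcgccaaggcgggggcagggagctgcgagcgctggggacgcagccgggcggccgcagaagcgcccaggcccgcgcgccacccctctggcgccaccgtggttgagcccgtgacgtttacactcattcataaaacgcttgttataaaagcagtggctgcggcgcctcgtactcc

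The stretches differed in which of these letters they held. JUN carried the octamer TGACATCA, long known as a site for JUN with ATF2, beginning 67 bases before the start, and a single GGAA beginning 81 bases before it. JUND carried 2 octamers, TGACGTCA at 200 bases and TGAGCTCA at 54 bases before the start, and no ETS core. In JUNB there were 4 ETS cores, the closest 52 bases before the start, and no octamer. FOSL2 had 2 ETS cores and FOS 1, neither with an octamer. FOSB, not printed, had 4 ETS cores and no octamer. The AP-1 heptamer TGANTCA, which also reads the same on both strands, was found in none of the 6 stretches examined. An upstream sequence was used for 6 of the 7 genes, all but FOSL1. Over 35116 upstream stretches of the same length, 92.7% held the ETS core, 10.1% the octamer and 6.57% the heptamer. The ETS core is thus nearly universal in such stretches, and a match describes letters only, not a bound site.

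ZMYND11 in ETS1-knockout cells was listed at 6 of the 7 genes, with FOS the exception. In tiles of 26827 bp, the mean window length, laid over each chromosome between its outermost listed regions, 8.24% held a knockout ZMYND11 region. The shares for the chromosomes of these genes were 9.59% on chromosome 1, 5.97% on chromosome 2, 9.23% on chromosome 11, 12.4% on chromosome 14 and 30.6% on chromosome 19. Tiles also cover sequence without genes and the windows do not, so the shares are a background for the genome and not for genes. The regions were divided as 10 over the 4 FOS family genes and 6 over the 3 JUN family genes. The windows totalled 120.7 kb for the FOS family and 67.1 kb for the JUN family, so the division was close to that of window length. Of the 16, 6 overlapped a gene body, 7 lay past the end of a gene and 3 lay upstream. Gene bodies ran from 1.8 kb (JUNB) to 21.7 kb (FOSL2), beside 10 kb on either side, and these counts were not scaled to length.

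**Figure D1:**
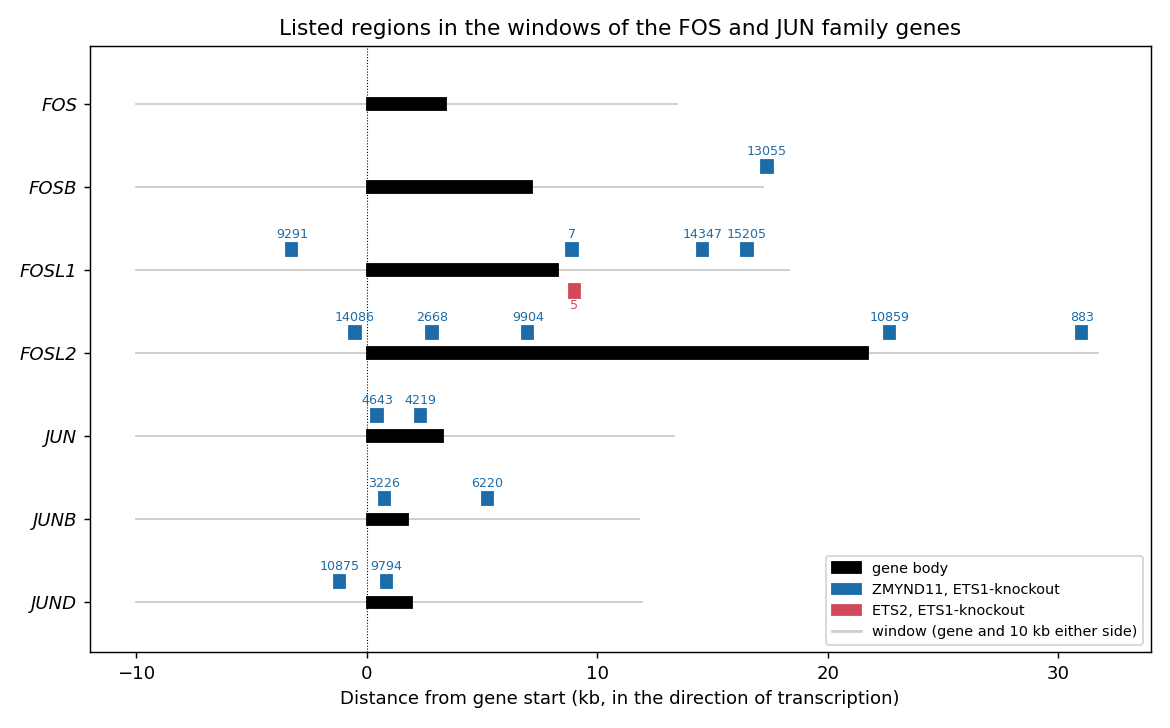
Regions in the windows of the 7 genes. The x axis is the distance from the gene start in kb in the direction of transcription, black bars are gene bodies, grey lines are windows of 10 kb either side, blue boxes are knockout ZMYND11 regions and the red box is the knockout ETS2 region, drawn to scale in width, and the figures beside boxes are places in the list. FOS has no box, the JUN family genes have 2 blue boxes each, and the red box at FOSL1 overlaps the stretch of the blue box at place 7, drawn above it.

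All 3 JUN family genes had a knockout ZMYND11 region inside the transcribed stretch and within 1 kb of the start. These genes have no introns, so a region inside the gene lies over exon sequence. They are 1.8 to 3.3 kb long, so any midpoint up to 1 kb past the start lies inside the gene by construction. A region of this list was held by 30.6% of tiles on chromosome 19 (JUNB and JUND) and 9.59% on chromosome 1 (JUN). The tiles are 26827 bp long, far longer than these genes. The shares are therefore not those of a stretch as short as a gene or its first 1 kb. The share of other genes with such a region was not analysed. At JUN, the founding member of its family, 2 regions were inside the gene. One, 59249081 to 59249577 at place 4643 of the list, covered the bases from 208 to 704 past the start, with its midpoint at 456 bp. The other, 59247215 to 59247692 at place 4219, had its midpoint 2331.5 bp past the start. The pair lay 1875.5 bp apart, and their places were 26.9% and 29.6% of the way down the list.

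JUNB, whose product can restrain JUN, had 1 region inside the gene, at 12902830 to 12903330. It stood at place 3226, the earliest of the JUN family, and its midpoint was 770 bp past the start. A second JUNB region, 12907303 to 12907796 at place 6220, lay 3179 bp past the end of the gene. In the RefSeq order on GRCh38.p14 the next protein-coding gene on that side is PRDX2, and HOOK2 overlaps JUNB. Which of these genes a region belongs to was not resolved, since gene features on hg19 were not used here.

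JUND, the most constantly expressed JUN protein in many cell types, had 1 region inside the gene (18391344 to 18391838, place 9794, midpoint 875 bp past the start). The other was upstream, at 18393397 to 18393893 (place 10875), with its midpoint at -1179 bp. The 2 JUND regions thus lay on either side of the start, 2054 bp apart. Both were in the later part of the list, at 62.5% and 69.4% of its length, after the 4 regions of JUN and JUNB.

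FOSL2 had 5 knockout ZMYND11 regions, the highest count of the 7 genes, in the longest window (41.7 kb). The region nearest to the start, 28615023 to 28615519, ended 260 bp upstream of it and stood late in the list, at place 14086. Inside the gene were 28618376 to 28618876 (place 2668, midpoint at 2847 bp) and 28622531 to 28623018 (place 9904, midpoint at 6995.5 bp). Past the end of the gene were 28638220 to 28638711 (place 10859), only 704 bp beyond it, and 28646545 to 28647045 (place 883), 9029 bp beyond it. The earliest-listed FOSL2 region was thus the one farthest from the start, on the side of PLB1 in the RefSeq gene order.

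FOSL1, which encodes FRA-1, had 4 knockout ZMYND11 regions, and none overlapped the gene. A region at 65658840 to 65659341 stood at place 7 of 15676 and had its midpoint 8906.5 bp from the start, with its nearer edge 351 bp past the end of the gene. CCDC85B is the neighbouring protein-coding gene on that side in RefSeq on GRCh38.p14, and which gene the region belongs to was not resolved. On the upstream side the region 65670996 to 65671483 (place 9291) had its midpoint at -3242.5 bp. The late-listed regions 65653177 to 65653674 (place 14347) and 65651254 to 65651735 (place 15205) lay 6018 and 7957 bp past the end of the gene.

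FOS and FOSB had the least. For FOSB the only region was 45988372 to 45988862 at place 13055, and it lay 9935 bp past the end of the gene, just inside the limit of 10 kb. Just outside the limit were a JUND region (18403393 to 18403858, place 5477) at 10927 bp and FOSL1 regions at 11620 and 11763 bp from the gene. FOS had no region of any list within 100 kb. The nearest knockout ZMYND11 region to the FOS start was 75643309 to 75643808, at place 2351 and 102 kb upstream.

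None of the 3 lists had a region over the stretch from 250 bases before to 50 bases after the hg19 start of any of the 7 genes. Knockout ZMYND11 midpoints within 1 kb of a start were found at 4 genes, at 456 bp for JUN, 770 bp for JUNB, 875 bp for JUND and -508 bp for FOSL2. The 3 JUN family regions were inside the gene and the FOSL2 region was upstream. How often a gene start in general has a region this near was not analysed here.

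The places of the 16 regions were spread over the whole knockout ZMYND11 list. Their median place was 9542.5, or 60.9% of the way down. Of the 16, 7 stood in the first 7838 places and 9 in the others, and 2 (at FOSL1 and FOSL2) stood in the first 1567. The first 7838 places held regions at 4 genes, namely FOSL1, FOSL2, JUN and JUNB. FOSB and JUND appeared in the later places alone. What the order of the list stands for is not stated, so a place is given as a place and not as a strength of binding.

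**Figure D2:**
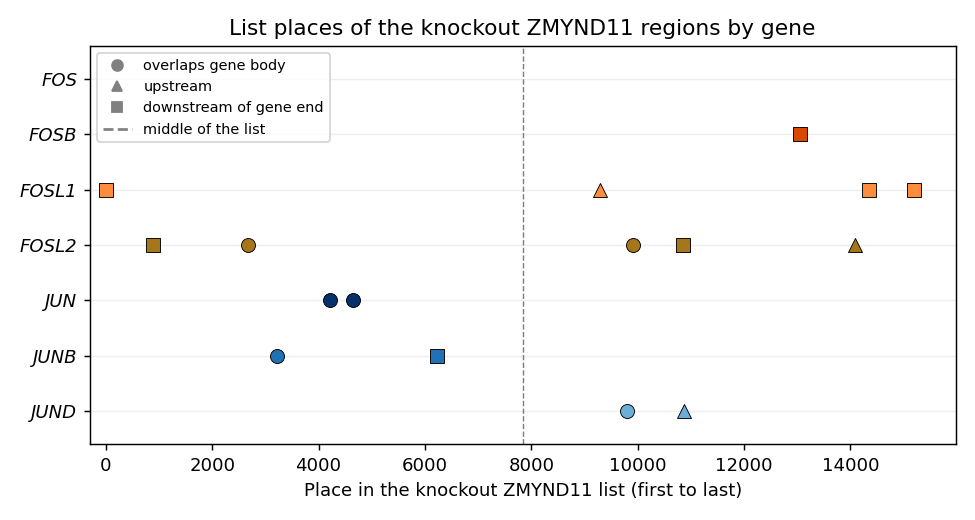
Place of each knockout ZMYND11 region in its list (x axis, first to last of 15676) by gene (y axis). Circles overlap the gene body, triangles are upstream, squares are past the gene end, and the dashed line is the middle of the list. JUN and JUNB have all 4 of their regions left of the line, JUND and FOSB have theirs right of it, and FOSL1 and FOSL2 have regions on both sides.

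The genes lay in surroundings of very different density. Between 10 and 500 kb from the gene on either side, the knockout ZMYND11 list had 76 regions around FOSL1, 42 around FOSB, 33 around JUNB, 26 around JUND, 18 around FOS, 5 around JUN and 4 around FOSL2. Scaled to the length of the window, these densities correspond to 2.20 regions for FOSL1, where 4 were listed, and to 1.17 for FOSB, where 1 was listed. For JUNB the scaled number was 0.735 and for JUND 0.583, with 2 regions listed at each. JUN (0.119 against 2 listed) and FOSL2 (0.170 against 5 listed) stood in sparse surroundings, and FOSL2 had no region from 10 to 100 kb away. At FOS the surroundings would correspond to 0.431 regions, which is fewer than 1. Window density was above that of the surroundings at 5 genes and below it at FOS and FOSB. Each of these window counts is 5 or fewer, and none was tested. Every window is built around a gene, whereas the surroundings also cover sequence between genes. Windows of other genes were not counted, so the contrast cannot be called particular to these genes.

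**Figure D3:**
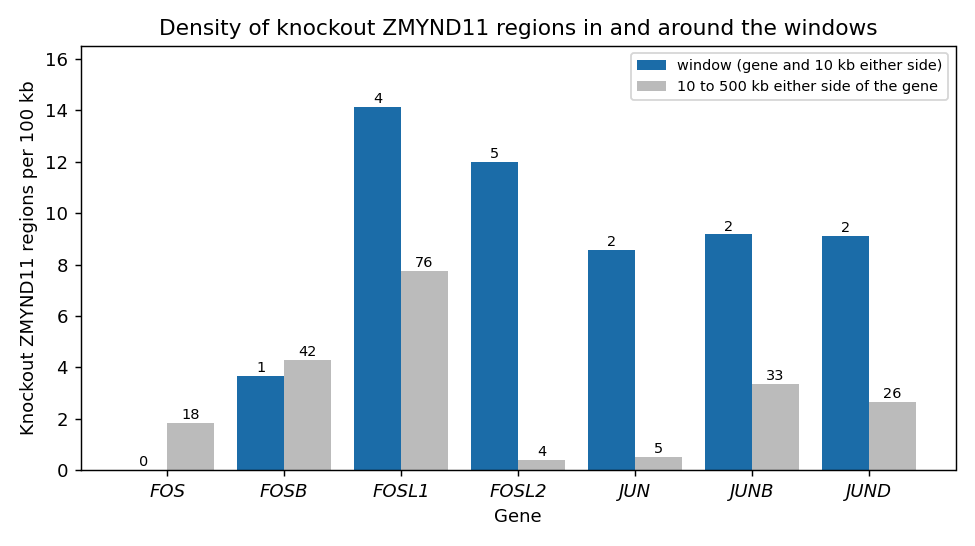
Knockout ZMYND11 regions per 100 kb (y axis, from 0) in the window of each gene (blue) and from 10 to 500 kb either side of the gene (grey), with the number of regions above each bar. FOSL2 and JUN have 5 and 2 regions in the window beside only 4 and 5 regions in the surroundings, while FOSL1 lies in the densest surroundings, with 76. The surroundings also cover sequence between genes, and the windows of other genes were not counted.

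Spacing within the list was also compared. The nearest neighbour of each of the 16 was a median of 3.75 kb away, from 1.88 kb (JUN) to 21.9 kb (FOSB), against a median of 5.27 kb over the whole list. Of the 16, 11 were nearer than that median, but these are not 11 separate distances. A pair at each of FOSL1, FOSL2, JUN, JUNB and JUND was counted from both of its regions. Regions picked from the same window also lie near one another by construction. Their widths ran from 477 to 501 bp with a median of 495 bp, beside 496 bp for the list as a whole.

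The only ETS2 region in any of the windows was at FOSL1. A share of 0.795% of tiles held a knockout ETS2 region (1.36% on chromosome 11). The ETS2 region, chromosome 11, 65658735 to 65659234, stood at place 5 of 1020, and lay 458 bp past the end of FOSL1, 9012.5 bp from its start. It overlapped the knockout ZMYND11 region at place 7 by 394 bp, and the midpoints were 106 bp apart. Both factors thus had one of their earliest-listed regions just past the end of FOSL1, on the side of CCDC85B in the RefSeq gene order, and not at the FOSL1 start. Which gene these regions belong to was not resolved, since gene features on hg19 were not used here.

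Of the 16 knockout ZMYND11 regions 1 overlapped an ETS2 region (6.25%), beside 3.71% of the whole list. The ETS2 region was the only one of its list here, where 57.1% of all ETS2 regions overlapped knockout ZMYND11. With a single shared region the count at these genes cannot be distinguished from the share of the whole list. The other 15 ZMYND11 regions, all 6 at the JUN family included, had no ETS2 overlap, and in the first 1567 places of the ZMYND11 list, which hold the shared FOSL1 region and 1 FOSL2 region, the share with ETS2 was 29.6%.

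Farther out, ETS2 was listed within 100 kb of 3 genes. Tiles of 26827 bp with an ETS2 region made up 4.56% on chromosome 19 (FOSB and JUNB) and 1.36% on chromosome 11 (FOSL1). A stretch of 100 kb either side of a gene is several times longer than a tile. The share of such stretches with an ETS2 region was not analysed. The count of 3 is therefore no result about FOS and JUN genes in particular. Besides the region past the gene, FOSL1 had ETS2 regions 42.2 kb (place 181) and 49.3 kb (place 718) downstream of its start, neither overlapping knockout ZMYND11. FOSB had one 62.5 kb upstream (45908465 to 45908966, place 462), which overlapped the ZMYND11 region at place 1036. JUNB had one 94.8 kb upstream (12807264 to 12807747, place 232), which overlapped the ZMYND11 region at place 194. For the remaining genes the nearest ETS2 region was 0.416 Mb away at JUND, 0.417 Mb at FOSL2, 2.18 Mb at FOS and 3.94 Mb at JUN. Within 500 kb of the gene, FOSL1 had 21 ETS2 regions, and no other gene had more than 4. Of the 21, 8 overlapped knockout ZMYND11, a lower share than the 57.1% of the whole ETS2 list. The same stretch held 80 knockout ZMYND11 regions, the most around any of the 7 genes.

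Parental ZMYND11 was listed at none of the 7 genes, and 0.481% of tiles held a parental region. An empty result at 7 genes is therefore close to that background and is no result about FOS and JUN genes in particular. The nearest parental region to a gene start was 477 kb away, at FOSL1 (65190403 to 65190904, place 145). Next was FOSB at 553 kb. The other 5 genes had none within 1 Mb, from 1.04 Mb at JUNB to 4.44 Mb at JUND. No parental region could be shared with knockout ZMYND11 in these windows, since there was none. The knockout list is far longer, and with each list taken to 536 places, the length of the parental list, the only region left among all 7 genes in the knockout ZMYND11 list was the one at place 7 past FOSL1. Whether the presence of ZMYND11 regions at 6 genes in knockout cells and at 0 in parental cells reflects the knockout, the depth or the calling of regions cannot be told apart with 1 library of each.

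**Figure D4:**
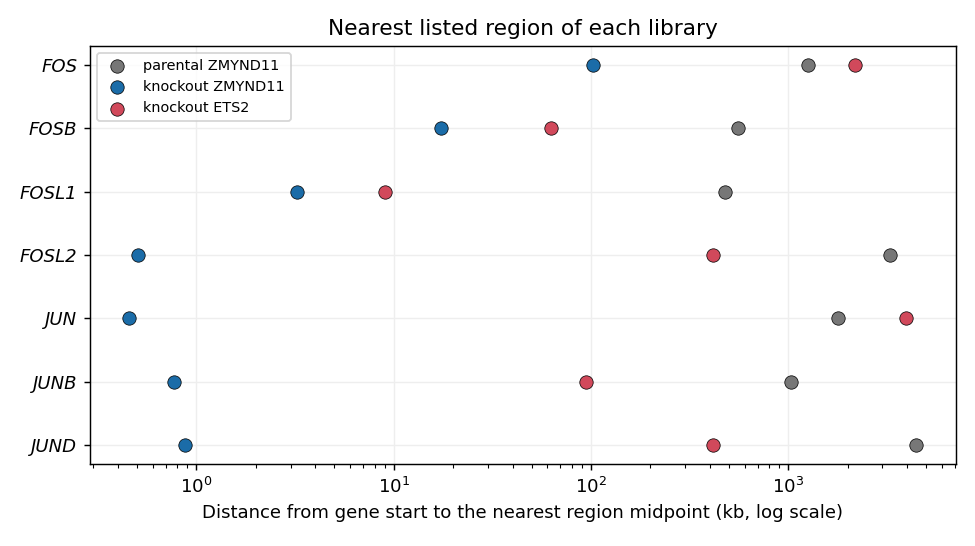
Distance in kb (x axis, log scale) from each gene start to the nearest region midpoint of the parental ZMYND11 (grey), knockout ZMYND11 (blue) and knockout ETS2 (red) lists. Knockout ZMYND11 is the nearest at all 7 genes, under 1 kb at JUN, JUNB, JUND and FOSL2 and 102 kb at FOS. Its list is by far the longest, with 15676 regions beside 1020 for ETS2 and 536 for parental ZMYND11. A longer list tends to come nearer to any gene, and the distances were not adjusted for length. ETS2 comes closest at FOSL1, at 9.01 kb, and parental ZMYND11 is at least 477 kb away everywhere.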

How the data were processed

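ZMYND11 and ETS2 ChIP-seq regions were analysed from 3 libraries of DU145 cells, grouped by the sample titles, 1 library a group. Bowtie2 (version 2.0.6) and the build hg19 are named in the submitters' processing notes. Peak calling, controls and depth are not described in what was used here, so the precision of a region is unknown. The values deposited by the authors are the chromosome, start and end of each region, printed as deposited.

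The 7 genes, their hg19 loci and the rule were chosen with earlier results of these data known. All 7 are named, with every parental and ETS2 region; all 16 knockout ZMYND11 regions are given, more than the naming rule asked for. An overlap of 1 bp or more made regions of 2 lists shared. Upstream sequences and gene order came from RefSeq tables on GRCh38.p14, the latter for all 7 genes and for names only. A planned count at other AP-1 genes was not run, because hg19 positions of those genes were not used here. Assignment was tested on simulated data. Alternatives changed the window, the overlap rule, the distance to the start and the part of each list used. The software was Python 3.11.15 with pandas 2.3.3, numpy 2.4.6 and matplotlib 3.10.9.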

Additional observations from a re-analysis of the deposited data

How the results depend on the processing

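Of 54 alternatives, 44 left the count within 1.5 times that of the main analysis, and 10 did not. The 44 include every count that was 0 in the main analysis and stayed 0. These are the counts of parental ZMYND11 and those of knockout ETS2 within 1 kb of a start. A narrower window or a shorter list could not change an empty count, so the 44 are not a measure of stability. The number of knockout ZMYND11 regions at the 7 genes was 16 in the main analysis, 6 over gene bodies alone, 38 with windows of 50 kb, 7 in the first 50% of each list and 1 with each list at the length of the shortest, where the number of genes with a region fell from 6 to 1. Fewer or more bases, or fewer listed regions, enter these counts by construction. For knockout ETS2 the count of 1 became 0 over gene bodies, which also left 0 genes with a region, and 3 with windows of 50 kb, all at FOSL1. Knockout ZMYND11 regions within 1 kb of a start numbered 4, against 1 (JUN) within 500 bp and 2 (JUN and JUNB) in the first 50% of the list. FOSB lost its only region when the midpoint had to lie in the window, which left 5 genes. Parental ZMYND11 had 0 regions under each alternative run, up to windows of 50 kb. The single region shared with ETS2 was shared under all 3 alternatives run. No paired analysis was possible because each group has 1 library, and for the same reason no replicate could be left out. Without scores, depth or a control, the limit of detection at a gene without a region is unknown.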
